A study of Mus musculus with 12 samples.

Results

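The urea cycle and its carriers comprise 8 genes here, the enzymes Nags, Cps1, Otc, Ass1, Asl and Arg1 and the mitochondrial carriers Slc25a15 and Slc25a13. Their rows in the count table were found by symbol. All 8 were among the 24411 genes listed, and all 8 were among the 13922 genes that had enough counts to be tested. Liver RNA was compared between 3 mice of each of 3 genotypes. Atg7 flox/flox mice are called cont., those that also carry Alb-Cre are called Atg7-KO, and those with Alb-Cre and homozygous p62T352A are called Atg7-KO;p62T352A. All were 3 months of age, and all carried the floxed Atg7 alleles. Alb-Cre removes Atg7, which autophagosome formation needs, and the paper calls the knockout hepatocyte-specific. The p62T352A exchange, an alanine in place of a threonine, sits in the endogenous gene of p62 (Sqstm1), was made by genome editing in mouse embryonic stem cells, and yields a p62 that does not hold KEAP1 in p62 bodies. The question of the series is which of the changes of the Atg7-KO liver depend on that retention of KEAP1. A genotype with p62T352A alone has sample labels but was not analysed here.

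The urea cycle turns ammonia, which is toxic, into urea. Ammonia enters in the mitochondria of hepatocytes as carbamoyl phosphate, which is joined to ornithine, and the remaining steps run in the cytosol, where a second nitrogen comes from aspartate and where arginine is finally split into urea and ornithine. Hepatocytes near the portal vein carry most of the cycle, whereas those around the central vein take up the remaining ammonia through glutamine synthetase. Expression of the enzymes is known to respond to glucagon, glucocorticoids and diet and to need the hepatocyte factors C/EBPα and HNF4α.

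Counts summed to between 9671080 and 23285132 in the cont. mice and to between 16133620 and 18480553 in the other 6. Levels are given as normalized CPM, counts scaled to the size of the library by edgeR's TMM method. The level of Atg7 in cont. livers was 48.7 ± 5.94 (SD, n = 3), that in Atg7-KO was 10.6 ± 1.27 and that in Atg7-KO;p62T352A was 28.9 ± 1.28, so the last genotype lay between the others. It was called lower than cont. in both (adjusted p = 2.55e-05 and 0.0206) and higher in Atg7-KO;p62T352A than in Atg7-KO (adjusted p = 1.64e-04). A count over the whole gene does not separate transcripts with and without the deleted part. At the protein level, the paper's immunoblots showed almost no ATG7 on the Atg7-KO background, with or without the p62 mutation. Nqo1, a target of NRF2, was at 8.61 ± 3.14 in cont. livers, at 214 ± 37.3 in Atg7-KO livers and at 14.4 ± 3.52 in Atg7-KO;p62T352A livers. Mouse 1 of each genotype had only 7 to 28 counts of Xist, a transcript of female cells, whereas the other 6 had 8578 to 18335. By this marker, sex went with the mouse number. Mouse 1 of cont. also had the most counts of all 9 and stood apart from its group in most members. Nothing in the labels says whether mice shared litters, so that p-values measure the spread between these mice.

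The 8 genes lie on 8 chromosomes. In the GENCODE annotation of GRCm38, Cps1 spans chr1:67123026-67231259 on the plus strand, Otc chrX:10252305-10321024 (plus), Ass1 chr2:31470207-31520672 (plus), Asl chr5:130011258-130029247 (minus), Arg1 chr10:24915221-24927484 (minus), Nags chr11:102145513-102149477 (plus), Slc25a15 chr8:22375551-22398597 (minus) and Slc25a13 chr6:6041218-6217173 (minus). For 6 of them no 75-base stretch of a transcript, the length of a read, recurs in another annotated gene. Nags shares 12.5% of its stretches with Gm11586, an antisense gene that overlaps it, and without a stated strand setting their reads cannot be told apart. Ass1 shares 32.6% of its stretches with Gm5424, a processed pseudogene at chr10:62071123-62072362 (plus strand). Over the 1240 bases of Gm5424, which take in all 1236 coding bases of Ass1, the 2 sequences differ at 6 positions (99.52% identical). The window below, from exon 14 of the longest Ass1 transcript and from the single exon of Gm5424, is 1 read long and shows how a read is placed by 1 base, which is in capitals. The Ass1 window is chr2:31514682-31514756 and the Gm5424 window is chr10:62072096-62072170.
Ass1: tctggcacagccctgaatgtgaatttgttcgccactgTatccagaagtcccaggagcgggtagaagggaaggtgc
Gm5424: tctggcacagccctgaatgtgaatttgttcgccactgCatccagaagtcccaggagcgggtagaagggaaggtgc

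RefSeq promoters (GRCm38.p6, 250 bases before to 50 after the start) were found for 5 of the 8 members, in 6 windows since Slc25a15 has 2. They are shown for Otc and Ass1, which were called higher again in Atg7-KO;p62T352A livers, and for Slc25a13, which was not. The windows are chrX:10252055-10252354 (plus strand) for Otc, chr2:31470020-31470319 (plus) for Ass1 and chr6:6217124-6217423 (minus) for Slc25a13, and capitals mark matches to any of 6 motifs searched on both strands.
Otc: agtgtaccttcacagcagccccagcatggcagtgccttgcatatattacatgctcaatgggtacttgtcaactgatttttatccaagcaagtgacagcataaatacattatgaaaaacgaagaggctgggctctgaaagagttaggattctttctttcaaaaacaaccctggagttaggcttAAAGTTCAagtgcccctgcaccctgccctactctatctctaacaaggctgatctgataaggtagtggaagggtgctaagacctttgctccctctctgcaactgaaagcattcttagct
Ass1: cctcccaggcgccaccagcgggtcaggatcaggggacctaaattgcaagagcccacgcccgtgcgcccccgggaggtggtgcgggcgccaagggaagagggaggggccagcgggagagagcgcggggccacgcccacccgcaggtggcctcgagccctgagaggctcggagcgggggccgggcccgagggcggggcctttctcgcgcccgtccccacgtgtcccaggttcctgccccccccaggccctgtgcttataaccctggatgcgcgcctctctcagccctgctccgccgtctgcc
Slc25a13: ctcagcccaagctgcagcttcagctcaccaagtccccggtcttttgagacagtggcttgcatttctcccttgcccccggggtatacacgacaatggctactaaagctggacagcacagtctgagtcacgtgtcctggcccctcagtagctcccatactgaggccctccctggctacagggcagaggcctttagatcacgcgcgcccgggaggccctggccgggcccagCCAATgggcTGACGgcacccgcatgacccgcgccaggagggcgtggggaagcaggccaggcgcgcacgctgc

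The motifs were the TATA box TATAAA, the CCAAT box CCAAT, a C/EBP site TTGCNNAA, the half-site of the cAMP response element TGACG, an HNF4 site AAAGNNCA and the core of the antioxidant response element bound by NRF2, TGACNNNGC. Otc holds an HNF4 match, AAAGTTCA, that starts 68 bases before the start site, and 19.6% of all 32851 promoters hold this motif. Slc25a13 holds CCAAT (in 37.4% of all promoters) that starts 22 bases before the start site and TGACG (in 20.8%) that starts 13 bases before it. Nags holds CGTCA, the reverse complement of TGACG, at base 32 of the transcript. Neither window of Slc25a15 nor that of Ass1 holds any of the 6. No member's window matched TATAAA, TTGCNNAA or TGACNNNGC, which 13.6%, 10.8% and 12.4% of all promoters hold.

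All 8 members were lower in Atg7-KO than in cont. livers, by 1.71-fold (Nags) to 10.1-fold (Ass1; 4.14-fold when summed with its pseudogene Gm5424, below the 4.26-fold of Asl), and 8 of 8 were called lower, where 22.1% of the genes tested were called lower and 21.6% higher. No member was called higher by edgeR or DESeq2 or had an unadjusted p under 0.05 in that direction. A gene was called at an adjusted p under 0.05 (edgeR's quasi-likelihood test, Benjamini-Hochberg over all genes tested) and a fold change over 1.5. The median log2 fold change was -1.14 over the members and -0.032 over all genes tested. In each of the 8, every Atg7-KO mouse lay below every cont. mouse, as for 26.3% of all genes tested. The share of a library's counts that fell on the members ranged from 0.606% to 0.721% in cont., from 0.314% to 0.362% in Atg7-KO and from 0.623% to 0.710% in Atg7-KO;p62T352A mice. With each library scaled instead on 9 hepatocyte markers, only Cps1, Ass1 and Asl were called lower (3 of 8, with 4.40% of all genes called lower), and the log2 fold changes of Nags, Slc25a15 and Slc25a13 turned to 0.14, 0.029 and 0.11. In bulk RNA, fewer hepatocytes and less RNA per hepatocyte cannot be told apart.

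**Figure D1:**
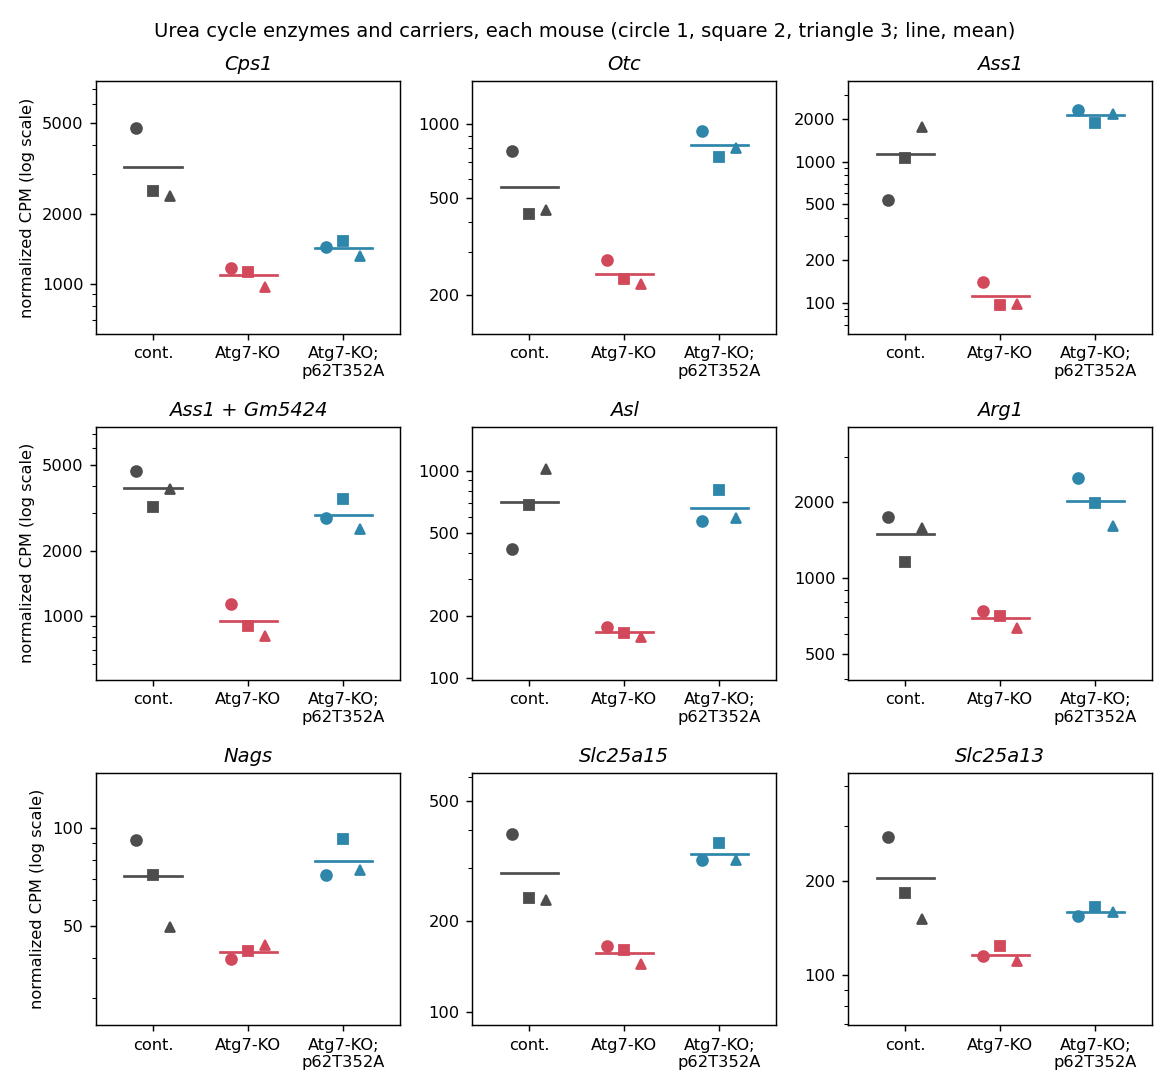
Normalized CPM (log scale) of the 8 members, and of Ass1 and Gm5424 summed, in each mouse, with the mean of each genotype as a line. All 3 Atg7-KO mice lie below all 3 cont. mice in every panel, and the 3 Atg7-KO;p62T352A mice lie above the Atg7-KO mice in every panel, although the gap is small for Cps1 and Slc25a13.

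The entry of ammonia into the cycle is set by Nags, which makes the N-acetylglutamate that Cps1 needs, and by Cps1, which makes carbamoyl phosphate. Cps1 was at 4731, 2522 and 2401 normalized CPM in the cont. mice 1, 2 and 3, at 1173, 1122 and 973 in the Atg7-KO mice and at 1439, 1536 and 1323 in the Atg7-KO;p62T352A mice. The cont. mice were the most spread, with mouse 1 far above the others, and the 3 genotypes did not overlap. Cps1 was 2.95-fold lower in Atg7-KO than in cont. (log2 -1.56, SE 0.28, adjusted p = 0.00192). Between Atg7-KO;p62T352A and Atg7-KO it was not called (log2 0.40, SE 0.28, adjusted p = 0.250), and the 95% interval of that ratio ran from 0.857 to 2.02. It was the only member called in Atg7-KO;p62T352A against cont. livers, 2.25-fold lower (log2 -1.17, SE 0.28, adjusted p = 0.0280). Nags was at 91.9, 71.9 and 49.8 in cont., at 39.6, 41.9 and 43.7 in Atg7-KO and at 71.7, 92.6 and 74.1 in Atg7-KO;p62T352A mice. The lowest cont. mouse was near the highest Atg7-KO mouse, and the cont. and Atg7-KO;p62T352A mice overlapped. Nags was 1.71-fold lower in Atg7-KO (adjusted p = 0.0194), a call that was lost without any 1 Atg7-KO mouse or without mouse 1 of cont. (log2 -0.55).

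Otc joins carbamoyl phosphate to ornithine in the mitochondria, and Slc25a15 brings the ornithine in and takes the citrulline out. Otc was at 777, 431 and 448 normalized CPM in cont., at 278, 233 and 223 in Atg7-KO and at 939, 737 and 803 in Atg7-KO;p62T352A mice. Of the Atg7-KO;p62T352A mice, 2 of 3 lay above the highest cont. mouse. Otc was 2.26-fold lower in Atg7-KO than in cont. (log2 -1.17, SE 0.26, adjusted p = 0.00512) and 3.38-fold higher in Atg7-KO;p62T352A than in Atg7-KO (log2 1.76, SE 0.26, adjusted p = 5.58e-04). Slc25a15 was at 389, 239 and 236 in cont., at 165, 161 and 144 in Atg7-KO and at 319, 364 and 318 in Atg7-KO;p62T352A mice. Here too mouse 1 stood above the other cont. mice. Slc25a15 was 1.84-fold lower in Atg7-KO (adjusted p = 0.0102; lost without mouse 3 of Atg7-KO, adjusted p = 0.0503) and 2.13-fold higher in Atg7-KO;p62T352A than in Atg7-KO (adjusted p = 0.00294).

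Ass1 condenses citrulline with aspartate, which Slc25a13 (citrin) exports from mitochondria, and Asl splits the product into arginine and fumarate. Ass1 was at 535, 1070 and 1778 normalized CPM in cont., at 141, 96.4 and 98.3 in Atg7-KO and at 2337, 1890 and 2184 in Atg7-KO;p62T352A mice. All 3 genotypes were apart, and mouse 1 was the lowest cont. mouse, unlike in most members. As counted, Ass1 was 10.1-fold lower in Atg7-KO than in cont. (log2 -3.33, SE 0.41, adjusted p = 2.54e-04) and 19.1-fold higher in Atg7-KO;p62T352A than in Atg7-KO (log2 4.26, SE 0.43, adjusted p = 9.56e-05), the largest changes among the members. However, the share of the Ass1 and Gm5424 counts that the table assigns to Ass1 moved with the genotype. It was 11.3%, 33.4% and 46.0% in the cont. mice, 12.4%, 10.7% and 12.1% in the Atg7-KO mice and 82.4%, 54.0% and 85.9% in the Atg7-KO;p62T352A mice.

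**Figure D2:**
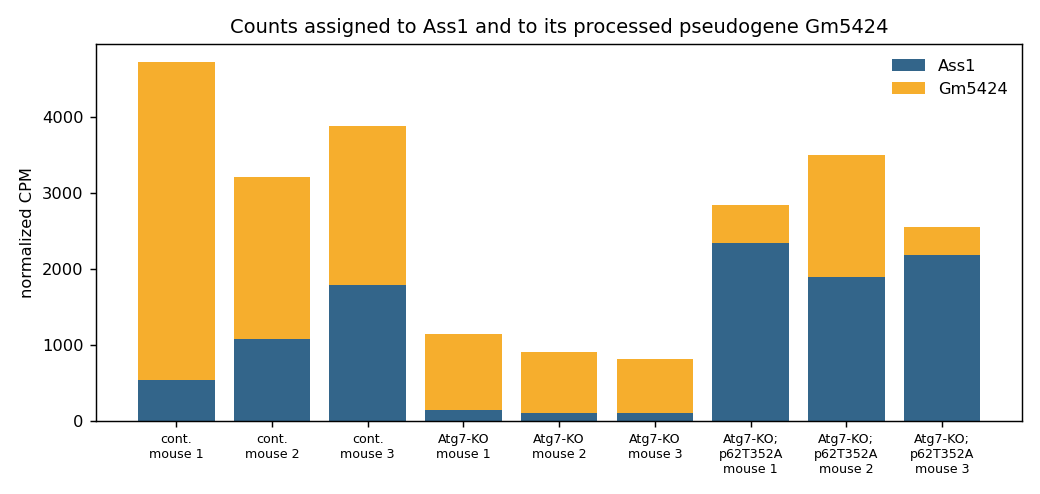
Normalized CPM assigned to Ass1 (blue) and to its pseudogene Gm5424 (orange) in each mouse, stacked so that the top of a bar is their sum. Gm5424 takes 88.7% of the sum in mouse 1 of cont. and 14.1% in mouse 3 of Atg7-KO;p62T352A, and the sums of the Atg7-KO mice are the lowest.

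Summed, Ass1 and Gm5424 came to 4718, 3202 and 3869 normalized CPM in cont., to 1134, 900.2 and 813 in Atg7-KO livers and to 2837, 3497 and 2543 in Atg7-KO;p62T352A mice. The sum put mouse 1 at the top of the cont. group and brought the cont. and Atg7-KO;p62T352A mice into overlap. It was 4.14-fold lower in Atg7-KO than in cont. (log2 -2.05, SE 0.25, adjusted p = 2.30e-04) and 3.12-fold higher in Atg7-KO;p62T352A than in Atg7-KO (log2 1.64, SE 0.24, adjusted p = 5.55e-04). Against cont., Ass1 alone was at a log2 of 0.92 in Atg7-KO;p62T352A livers (adjusted p = 0.145), and the sum was at -0.41 (adjusted p = 0.295), neither of them called. Gm5424 alone was called lower in Atg7-KO (log2 -1.74, adjusted p = 0.0236) and did not pass between Atg7-KO;p62T352A and Atg7-KO (log2 -0.026, adjusted p = 0.968). The table gives no way to say how much of either row came from the pseudogene.

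Asl, which shares no read-length stretch with another gene, was at 419, 686 and 1018 normalized CPM in cont., at 176, 166 and 157 in Atg7-KO and at 575, 806 and 593 in Atg7-KO;p62T352A mice. Its Atg7-KO mice were close together and far below both other genotypes, which overlapped. Asl was 4.26-fold lower in Atg7-KO than in cont. (log2 -2.09, SE 0.31, adjusted p = 6.90e-04) and 3.96-fold higher in Atg7-KO;p62T352A than in Atg7-KO (log2 1.98, SE 0.31, adjusted p = 7.16e-04). Slc25a13 was at 276, 183 and 151 in cont., at 115, 124 and 111 in Atg7-KO and at 155, 165 and 159 in Atg7-KO;p62T352A mice. It was 1.75-fold lower in Atg7-KO (adjusted p = 0.0149), but without mouse 1 of cont. the log2 fold change was -0.52 and no longer past the fold threshold, and without mouse 1 or 3 of Atg7-KO the adjusted p was 0.0560 and 0.0622. Beside Cps1, it was the member not called between Atg7-KO;p62T352A and Atg7-KO (log2 0.45, SE 0.22, adjusted p = 0.108, 95% interval of the ratio 0.972 to 1.93).

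Arg1 closes the cycle by splitting arginine into urea and ornithine. It was at 1742, 1159 and 1578 normalized CPM in cont., at 741, 704 and 634 in Atg7-KO and at 2478, 1984 and 1612 in Atg7-KO;p62T352A mice. It was 2.16-fold lower in Atg7-KO (log2 -1.11, SE 0.24, adjusted p = 0.00452) and 2.92-fold higher in Atg7-KO;p62T352A than in Atg7-KO (log2 1.55, SE 0.24, adjusted p = 6.81e-04). Arg1 is also a gene of myeloid cells, whose markers were higher in Atg7-KO livers, as given below.

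In Atg7-KO;p62T352A against Atg7-KO livers, 6 of 8 members were called higher, where 24.7% of all genes tested were called higher and 26.2% lower. DESeq2 also called 6 higher, and by neither tool was a member called lower, nor by an unadjusted p under 0.05. The median log2 fold change was 1.32 over the members and 0.0021 over all genes. In each of the 8, every Atg7-KO;p62T352A mouse lay above every Atg7-KO mouse, as for 36.4% of all genes. The called members rose by 1.90-fold (Nags) to 19.1-fold (Ass1; 3.12-fold with Gm5424). On hepatocyte markers, Otc, Ass1 and Asl were called higher (3 of 8, with 4.17% of all genes called higher), and Cps1, Slc25a13 and Nags turned to log2 fold changes of -0.58, -0.53 and -0.074. Cps1 and Slc25a13 were lower at an adjusted p under 0.05 there (0.0493 and 0.0436) but not past the fold threshold, unlike Nags (adjusted p = 0.776). The median of all genes on this scale was -0.98. Both this comparison and the preceding one use the same Atg7-KO mice, so their opposite signs are not independent of each other.

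**Figure D3:**
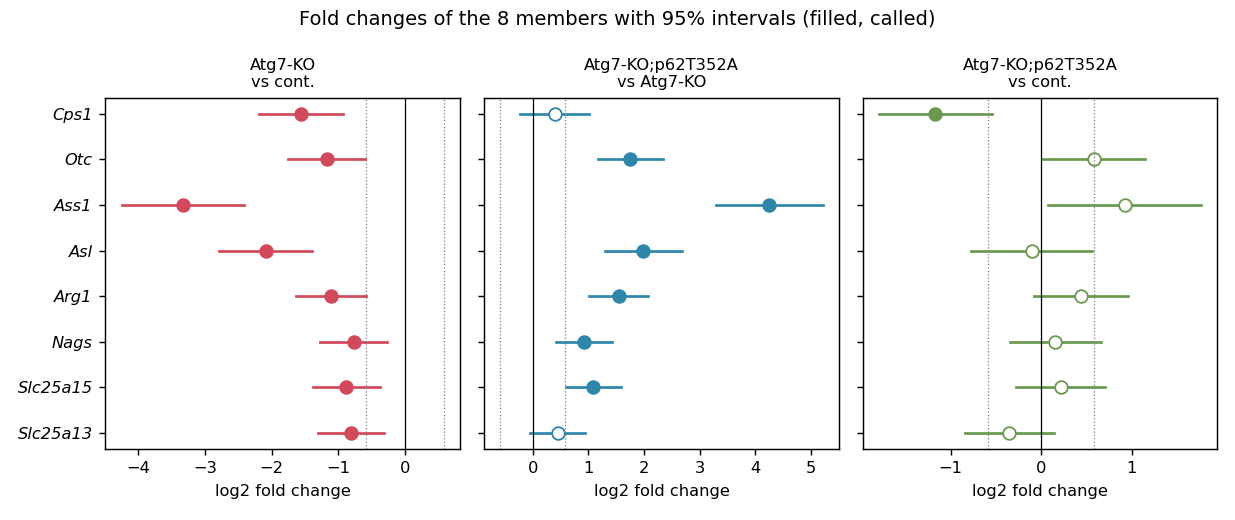
log2 fold changes of the 8 members in the 3 comparisons, with 95% intervals. Filled points were called, dotted lines mark a fold change of 1.5, and the scale differs between panels. All 8 lie below 0 in the left panel, 6 are filled above 0 in the middle panel, and Cps1 is the filled point in the right panel.

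Against cont., 1 of 8 members (Cps1) was called lower in Atg7-KO;p62T352A livers, by edgeR and by DESeq2, where 5.34% of all genes were called lower and 6.25% higher. Neither tool called a member higher, and 2 members (Ass1 and Otc) were higher at an unadjusted p under 0.05. Of the members not called, Nags, Slc25a15, Arg1 and Otc were at log2 fold changes of 0.16 to 0.58 and Ass1 was at 0.92. Asl was at -0.11 (adjusted p = 0.857) and Slc25a13 at -0.35 (adjusted p = 0.332). The 95% intervals of the ratio ran from 0.585 to 1.48 for Asl, from 0.557 to 1.10 for Slc25a13 and from 0.943 to 1.95 for Arg1, so that changes within these bounds could not be told from none. The call of Cps1 was lost without any 1 of the Atg7-KO or Atg7-KO;p62T352A mice (log2 -1.22 to -1.11, adjusted p = 0.0563 to 0.104). Leaving out mouse 1 of cont. gave a log2 fold change of 0.91 for Otc, then called higher (adjusted p = 0.00701). Scaled on hepatocyte markers, Cps1 stayed called lower at a log2 of -1.22 (adjusted p = 0.0204) with 2.77% of all genes called lower.

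Per length and with Ass1 counted alone, Arg1 had the highest level in each genotype, at 1011 ± 204 RPKM (normalized CPM per kilobase of the longest transcript, SD, n = 3) in cont., 469 ± 36.8 in Atg7-KO livers and 1371 ± 294 in Atg7-KO;p62T352A livers. In cont. it was followed by Ass1 (665 ± 368), Cps1 (579 ± 236), Asl (293 ± 124) and Otc (184 ± 65.1), then by Slc25a13 (65.2 ± 20.8), Slc25a15 (65.0 ± 19.8) and Nags (26.2 ± 7.75). The ranges of each neighbouring pair from Arg1 to Slc25a15 overlapped except those of Cps1 and Asl and of Otc and Slc25a13, and the range of Nags lay below all others. Summed with Gm5424, Ass1 had a higher mean than Arg1 in all 3 genotypes, at 2317 ± 448 in cont., at 560 ± 98.0 in Atg7-KO livers and at 1745 ± 288 in Atg7-KO;p62T352A livers. In Atg7-KO livers the order was Arg1, Cps1 (196 ± 18.8), Otc (81.7 ± 9.87), Asl (68.9 ± 3.87) and Ass1 alone (66.0 ± 14.9). In Atg7-KO;p62T352A livers Ass1 alone (1260 ± 134) came next after Arg1, whereas Cps1 (258 ± 19.2) came after Otc and Asl and its range overlapped those of Otc (276 ± 34.3) and Asl (273 ± 53.4). The median transcript length in place of the longest raised Slc25a13 to 323 and Ass1 alone to 1966 in cont., since the annotation lists short transcripts for both, and put Ass1 alone (3726) above Arg1 (2884) in Atg7-KO;p62T352A livers.

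Hepatocyte markers themselves differed between the genotypes, and so did markers of other liver cells. Of 9 hepatocyte markers, 6 were called lower in Atg7-KO (largest fall Apoa1, log2 -1.35) and 7 were called higher in Atg7-KO;p62T352A than in Atg7-KO. The shares over all genes tested were 22.1% lower and 21.6% higher in the former comparison and 24.7% higher and 26.2% lower in the latter. Their sum was 76941 to 138168 normalized CPM in cont., 42607 to 45812 in Atg7-KO mice and 116856 to 137861 in Atg7-KO;p62T352A mice, and Alb made up 57.7% to 66.7% of it. Cholangiocyte markers were called higher in 5 of 6 in Atg7-KO, with sums of 33.4 to 51.3, 826 to 1023 and 181 to 266 in the 3 genotypes. Cftr had 2 counts in cont. against 277 in Atg7-KO livers, a ratio of 75.1 with a counting interval of 20.6 to 623, and was at 0 in 2 cont. mice. Macrophage markers were called higher in 6 of 7 (largest rise Trem2, log2 4.77; sums 266 to 370, 1035 to 1096 and 178 to 350), stellate cell markers in 5 of 6 (Col1a1, log2 4.20; sums 189 to 239, 756 to 911 and 296 to 514), lymphocyte markers in 3 of 5 (Nkg7, log2 2.28; sums 13.4 to 31.4, 58.1 to 64.8 and 21.4 to 25.3) and neutrophil markers in 2 of 3 (S100a8, log2 2.03; sums 4.35 to 10.6, 9.94 to 15.3 and 7.07 to 9.79). Among 5 endothelial markers 2 were called higher (Lyve1, log2 1.57) and 1 lower (Stab2, log2 -1.19), with sums of 220 to 294, 215 to 225 and 123 to 153. Spp1 alone had a mean of 871 of the mean cholangiocyte sum of 928 in Atg7-KO. In Atg7-KO;p62T352A against cont. livers, Epcam, Sox9, Spp1, Trem2 (log2 3.47), Col3a1 and Dcn were called higher and 3 of 5 endothelial markers lower. No other marker of these liver cells was called there, where 6.25% of all genes were called higher and 5.34% lower. Sox9 and Dcn were not called between Atg7-KO;p62T352A and Atg7-KO (log2 0.26 and -0.0069). What part these shifts in markers had in the levels of the urea cycle genes was not tested, and per hepatocyte marker count the members differed from each other.

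Per 1000 counts of the 9 hepatocyte markers, Cps1 had 31.4 ± 2.71 counts (SD, n = 3) in cont., 24.6 ± 1.79 in Atg7-KO livers and 11.6 ± 0.57 in Atg7-KO;p62T352A livers. Relative to its mean, the spread of the cont. mice in Cps1 was smaller on this scale than in normalized CPM. Otc had 5.46 ± 0.47, 5.53 ± 0.65 and 6.73 ± 1.31, and Arg1 had 15.5 ± 4.39, 15.6 ± 0.93 and 16.4 ± 4.01, with overlap between all genotypes. Asl had 8.04 ± 5.10, 3.76 ± 0.18 and 5.27 ± 0.52, and mouse 1 of cont. (3.04) lay below the 3 Atg7-KO mice (3.62 to 3.96). With Alb left out of the markers, that mouse (9.06) lay within the range of the Atg7-KO mice (8.76 to 9.73). Slc25a13 had 2.02 ± 0.066, 2.63 ± 0.063 and 1.29 ± 0.083, Slc25a15 2.87 ± 0.17, 3.53 ± 0.17 and 2.69 ± 0.043, and Nags 0.711 ± 0.096, 0.944 ± 0.072 and 0.638 ± 0.032, so that these 3 were highest in Atg7-KO. With size factors from these markers alone, Ass1 and Gm5424 summed were 2.26-fold lower in Atg7-KO (log2 -1.17, adjusted p = 0.00218) and Asl was 2.50-fold lower (log2 -1.32, adjusted p = 0.0141). Cps1 was 1.55-fold lower (log2 -0.63, adjusted p = 0.0378), and Otc (log2 -0.26) and Arg1 (log2 -0.24) were not called. In Atg7-KO against cont., 7124 genes rose and 613 fell on that scale, in place of 3006 and 3074, and the median of all genes moved from -0.032 to 0.83. Both scalings are relative, and neither gives an amount of RNA per liver or per cell.

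**Figure D4:**
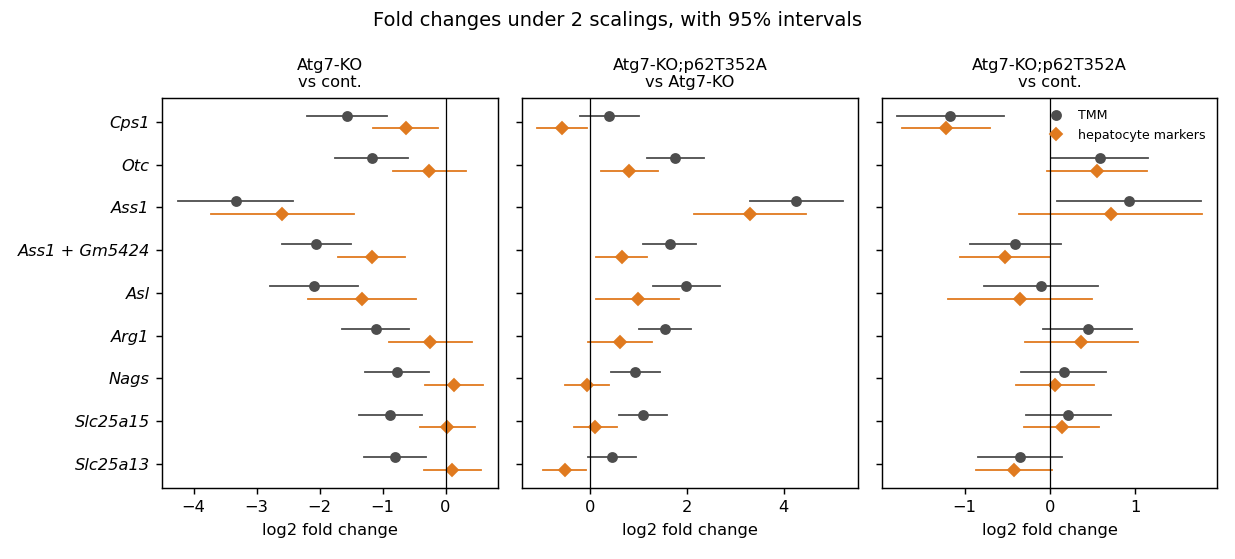
log2 fold changes with 95% intervals of the 8 members and of Ass1 and Gm5424 summed, with libraries scaled by TMM (grey circles) or on 9 hepatocyte markers (orange diamonds). The scale differs between panels. In the left panel the orange intervals of Cps1, Ass1, the sum and Asl stay below 0, and those of Otc, Arg1, Nags, Slc25a15 and Slc25a13 cross it.

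Genes around the supply of nitrogen and carbon to the cycle fell in part. Of 15 genes tested for the supply of ammonia, bicarbonate, glutamate and aspartate, 6 were called lower in Atg7-KO (median log2 -0.45), and in Atg7-KO;p62T352A against Atg7-KO livers 6 rose and 1 fell (median 0.46). Over all genes tested, 22.1% were called lower and 21.6% higher in the former comparison, and 24.7% rose and 26.2% fell in the latter. Oat fell the most of this list, although it draws ornithine from the cycle by turning it into glutamate semialdehyde. It went from 1033 ± 710 to 49.1 ± 9.19 normalized CPM (log2 -4.40, adjusted p = 1.39e-04), and was at 689 ± 169 in Atg7-KO;p62T352A livers. Slc25a12, the paralog of Slc25a13 (aralar), was not called in Atg7-KO (log2 0.32, adjusted p = 0.235) and was called lower in Atg7-KO;p62T352A than in Atg7-KO (log2 -0.99, adjusted p = 0.00362). A list of 8 tested transport genes held transporters of ammonium and amino acids and the channel gene Aqp9. Of these 8, 6 were called lower and 2 higher in Atg7-KO, whereas 5 rose and 2 fell in Atg7-KO;p62T352A against Atg7-KO livers. The glutamate transporter Slc1a2 fell from 201 ± 79.7 to 4.29 ± 1.46 (log2 -5.55, adjusted p = 2.50e-05), and the cationic amino acid transporter Slc7a1 rose from 0.813 ± 0.062 to 3.93 ± 0.38 (log2 2.27, adjusted p = 2.84e-04). Against cont., edgeR called no gene of either list in Atg7-KO;p62T352A livers, where 5.34% of all genes were called lower and 6.25% higher. In each list 1 gene was lower at an unadjusted p under 0.05, and 1 was called lower by DESeq2.

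Glul, the glutamine synthetase of pericentral hepatocytes, was at 1052 ± 181 normalized CPM in cont., 263 ± 30.6 in Atg7-KO livers and 1288 ± 243 in Atg7-KO;p62T352A livers. It was called lower in Atg7-KO (log2 -2.00, adjusted p = 1.68e-04) and higher between Atg7-KO;p62T352A and Atg7-KO (log2 2.29, adjusted p = 9.10e-05), as were most members. Of 12 other periportal genes 7 were called lower and 2 higher in Atg7-KO (median log2 -1.05), with the largest fall for Hal, which breaks down histidine (log2 -2.63), and the largest rise for Aldh1b1 (log2 2.33). Of 12 pericentral genes 8 were called lower and 1 higher (median log2 -1.83), with the largest fall for Cyp2c37 (log2 -4.94) and the rise of Slc1a4 (log2 4.91). In Atg7-KO;p62T352A against Atg7-KO livers, 7 periportal genes rose and 2 fell, and 8 pericentral genes rose and 1 fell. Among all genes tested, 22.1% were called lower and 21.6% higher in Atg7-KO, and 24.7% rose and 26.2% fell in this comparison. Aldh1b1 and Slc1a4 were each the single gene of its list called higher in Atg7-KO;p62T352A than in cont. livers.

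**Figure D5:**
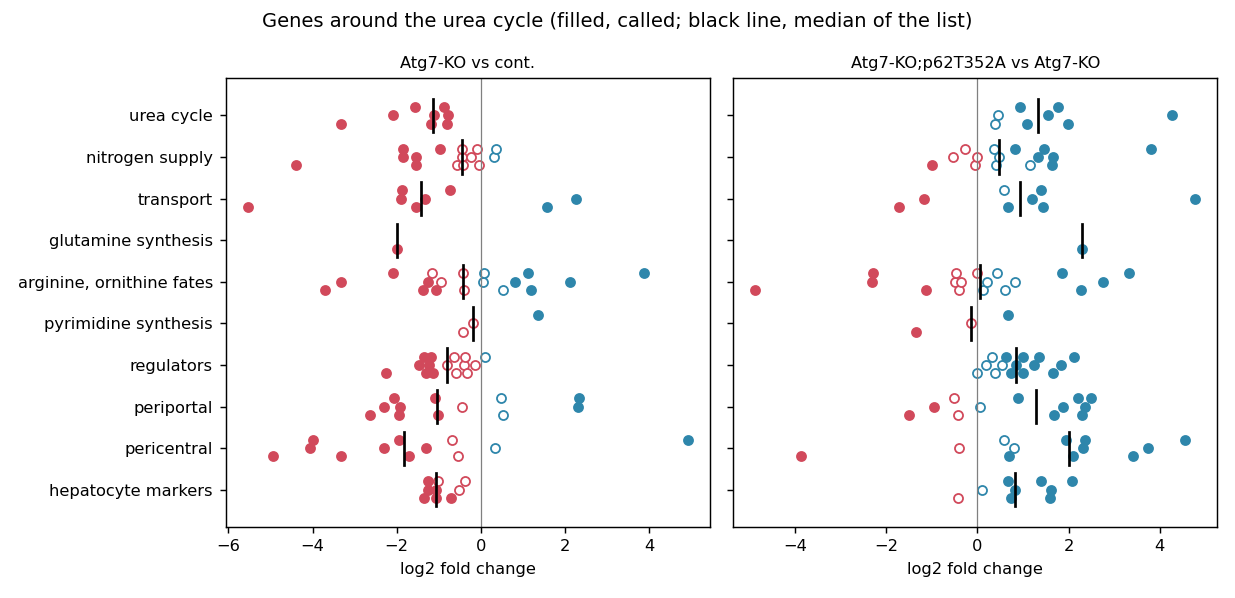
log2 fold changes of the tested genes of 10 lists in 2 comparisons, 1 point per gene, red below and blue above 0, filled where called, with the median of each list in black. In the urea cycle all 8 points lie below 0 on the left and above 0 on the right, and the fates of arginine and ornithine lie on both sides.

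Other fates of arginine and ornithine moved in both directions, with 5 of 18 genes called higher and 6 lower in Atg7-KO (median log2 -0.42). For comparison, 21.6% of all genes tested were called higher and 22.1% lower. Arg2, the mitochondrial arginase, had 3, 3 and 1 counts in the cont. mice, 53, 57 and 88 in the Atg7-KO mice and 1, 2 and 1 in the Atg7-KO;p62T352A mice. Its pooled level was 15.3 times that of cont. in Atg7-KO livers, with an interval of 7.31 to 38.7 for counting error only, and it was called higher (adjusted p = 1.51e-04). It was still low, at 2.89 ± 0.76 normalized CPM in Atg7-KO. Slc25a2, a paralog of Slc25a15, had 1, 15 and 12 counts in cont., 3, 1 and 0 in Atg7-KO and 8, 4 and 17 in Atg7-KO;p62T352A mice, and was called lower in Atg7-KO (adjusted p = 0.0266) at counts too low to give its fold change closely. Prodh, which degrades proline, fell the most among the better counted genes (log2 -3.32, adjusted p = 2.43e-04). In Atg7-KO;p62T352A against Atg7-KO livers, 4 of the 18 rose and 4 fell (24.7% and 26.2% of all genes), and against cont. 3 fell (5.34% of all genes). Of 3 genes of pyrimidine synthesis, which starts from carbamoyl phosphate made in the cytosol, Umps was called higher in Atg7-KO (log2 1.35, adjusted p = 0.00157), and Cad and Dhodh were at -0.19 and -0.43 and were not called.

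Of 15 factors, receptors and deacylases known to act on urea cycle genes or enzymes, 7 were called lower in Atg7-KO (median log2 -0.80), where 22.1% of all genes tested were. The glucagon receptor gene Gcgr fell the most, from 548 ± 275 to 114 ± 0.60 normalized CPM (log2 -2.26, adjusted p = 0.00127), and was at 494 ± 67.2 in Atg7-KO;p62T352A livers. Cebpb, Creb3l3, Klf15, Ppara and Sirt3 were among the others called lower. In Atg7-KO;p62T352A against Atg7-KO livers 10 were called higher, where 24.7% of all genes were. Cebpa and Hnf4a were among the 10 (log2 0.85 and 0.73), although these 2 were not called in Atg7-KO against cont. (log2 -0.40 and -0.39). The level of Nfe2l2, which encodes NRF2, was not called in any of the 3 comparisons (log2 -0.60, 0.0020 and -0.59).

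Among the 13914 other genes tested, the gene whose profile over the 9 mice was most like that of a member, by the root mean square difference of centred log2 CPM, was Slco1b2 for Cps1 (0.157), Ggact for Otc (0.143), Ctcflos for Ass1 (0.344), Dcxr for Asl (0.139), 9330162012Rik for Arg1 (0.111), Pcdh1 for Nags (0.122), Etfa for Slc25a15 (0.0909) and Ubr3 for Slc25a13 (0.0949). A small difference means a near profile, and in these units it also grows with the size of a gene's own changes, which were largest for Ass1 as counted. Within the set, the nearest pairs were Nags and Slc25a15 (0.170) and Otc and Arg1 (0.219), whereas Ass1 as counted was at 0.974 from its nearest member, Asl.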

How the data were processed

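Poly(A) RNA from the livers was sequenced as 75-bp single-end reads by the authors, who trimmed them with Trim Galore, mapped them to mm10 with STAR and quantified genes with RSEM. Versions, the annotation and the strand setting were not given in the sources used here. The paper names TRIzol and the labels a column kit for the extraction. The deposited values are RSEM expected counts per gene, estimated counts without scaling for library size, and RSEM divides reads that fit several genes among them. They were rounded to whole numbers. Columns were mapped to mice by the genotype and number that their labels give.

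Statistics were computed with edgeR 4.0.16 and, as an alternative, DESeq2 1.42.0 in R 4.3.3. Figures were drawn in Python 3.11.15 with matplotlib 3.10.9. Genes kept by filterByExpr (13922) were scaled by TMM and fitted with all 3 genotypes in 1 quasi-likelihood model (glmQLFit, glmQLFTest). For a call, the FDR (Benjamini-Hochberg) had to be under 0.05 with more than a 1.5-fold change, as in the study, which used DESeq2. Standard errors were derived from the F statistic. Log2 CPM for profiles and for the check of pairing used a prior count of 2. Transcript lengths, positions and shared 75-base stretches came from GENCODE vM21 (GRCm38). Of the table's symbols, 24037 matched, 661 through a synonym. Replicates differed by more than counting noise, with a chi-square per degree of freedom of 13.9 or more within each genotype. The main fit was tested on counts simulated for Atg7-KO against cont., with 4-fold changes and a dispersion of 0.08 for every gene. It recovered 199 of 200 changed genes and called 10 of 13489 unchanged ones. Smaller changes, the scaling on hepatocyte markers and the sum of Ass1 and Gm5424 were not simulated.

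The members and gene lists were chosen with earlier results of these data known. Named are all 8 members, paralogs, the largest called rise and fall of each list in Atg7-KO against cont. with a mean of at least 1 CPM, and the nearest profile of each member. Genes named beyond that rule were picked after their values were seen (Gm5424, the other regulators, Cad, Dhodh and the markers Epcam, Sox9, Spp1, Col3a1 and Dcn). Of 10 listed hepatocyte markers, 9 were analysed. Alternatives are given with their effect in the closing section. Those added after seeing the data were libraries scaled on the hepatocyte markers (median of ratios) and the counts of Ass1 and Gm5424 summed, alone and together. Amino acid sequences were not used here.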

Additional observations from a re-analysis of the deposited data

How the results depend on the processing

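Beside the fit given, 24 alternatives were run for each member and comparison, with 1 more for Ass1: DESeq2, its size factors in edgeR, upper-quartile scaling, no filter, FDR alone, a minimum of 10 counts per mouse, a replicate block, removal of the 20 most counted genes, glmTreat, the 2 genotypes alone, a length offset with and without the block, each mouse left out, the mice numbered 1 left out, and those added after seeing the data. In Atg7-KO against cont., 8 members called lower became 5 under glmTreat and 3 on hepatocyte markers, and 5 to 8 with each mouse left out. Between Atg7-KO;p62T352A and Atg7-KO, 6 called higher became 5 under glmTreat (without Nags) and 3 on hepatocyte markers. Against cont., the member called lower in Atg7-KO;p62T352A (Cps1) was lost, with a count of 0, under glmTreat, with the 2 genotypes alone (adjusted p = 0.131), with the length offset (0.0686) and with that offset and the block (0.0896), and the count was 0 to 1 with each mouse left out. No member was called higher there in the fit given, and 1 was with the mice numbered 1 left out (Otc, log2 0.81), or 0 to 1 with each mouse left out (Ass1 without mouse 3 of cont., log2 1.41). Except in glmTreat, where fewer genes pass by construction, and the smaller samples, the cause was not tested.

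Signs turned on hepatocyte markers for Nags, Slc25a15 and Slc25a13 in Atg7-KO against cont. (0.14, 0.029 and 0.11), and for Cps1, Nags and Slc25a13 between Atg7-KO;p62T352A and Atg7-KO (-0.58, -0.074 and -0.53), and the 3 former and, in the latter comparison, Nags also lost their calls. Cps1 and Slc25a13 had an adjusted p of 0.0493 and 0.0436 there and stayed short of the fold threshold. Between Atg7-KO;p62T352A and cont., Ass1 turned to -0.41 with Gm5424 summed and -0.52 with that sum on hepatocyte markers, and without mouse 3 of cont. Asl turned to 0.25 and Nags to -0.045 (ranges with each mouse left out -0.37 to 0.25 and -0.045 to 0.39). Of the members' log2 fold changes under alternatives, 175 in Atg7-KO against cont., 187 between Atg7-KO;p62T352A and Atg7-KO and 176 between Atg7-KO;p62T352A and cont. kept sign and side of the threshold, 15, 3 and 10 kept their sign and lost their call, and 3 gained one in the last comparison. Upper-quartile scaling moved the median of all genes between Atg7-KO;p62T352A and Atg7-KO to -0.13. Deviations of same-numbered mice of different genotypes correlated at -0.202 to 0.321 over 9 pairs, with a mean of 0.146 against -0.071 over the 18 other pairs. The numbers were not taken as pairs in the fit given, since the study's methods describe no pairing. Sex, as read from Xist, was shared by number, with mouse 1 of each genotype apart from the others. Further factors shared by number are not excluded. With the replicate block 8, 6 and 1 members were called in the 3 comparisons, with Cps1 at -1.11 (adjusted p = 0.0421) in the last, and it changed no member's call. With 3 mice in a genotype, the spread of the cont. mice limits what can be seen for Ass1, Asl and Cps1.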
